A study of Mus musculus with 19 samples.

Results

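Interferons switch on a set of genes that attach small modifiers to proteins, and 10 of these genes are described here among the 24537 genes of the deposited count table. They were chosen by symbol, as the interferon-induced members of the poly(ADP-ribose) polymerase (PARP) family and the enzymes of ISG15 conjugation: Uba7, Ube2l6, Herc6, Usp18, Parp9, Dtx3l, Parp14, Parp10, Parp11 and Parp12. All 10 were in the table and all 10 passed the filter on low counts. RNA of isolated hepatocytes, the cells that carry out most of the liver's metabolism, was sequenced from 19 mice at 1 library per mouse. All mice were male, of WT genotype and of strain C57BL/6J, a single inbred line, and no treatment or transgene is named in the labels. The young group held 10 mice aged 5 months and the old group 9 mice aged 24 months. Tissue came from 2 cull days separated by 23 days. On the first, 5 mice of each age were culled, and on the second 5 young mice and 4 old ones.

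ISG15 is a ubiquitin-like protein that type 1 interferon induces and that is joined to target proteins by a relay of enzymes. Uba7 is the activating enzyme (E1), Ube2l6 the conjugating enzyme (E2) and Herc6 the main mouse ligase (E3), while Usp18 removes ISG15 from its targets and also dampens signalling at the type 1 interferon receptor. The interferon-induced PARPs move ADP-ribose from NAD onto proteins or nucleic acids, and Parp9 works as a partner of the ubiquitin ligase Dtx3l. Transcription of such genes is classically driven by factors that include Stat2 and Irf9, through a DNA element called the interferon-stimulated response element.

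The members lie on 5 chromosomes of the mm10 build, 4 of them on chromosome 6 and 3 on chromosome 16. Parp14 (chr16:35832878-35871382), Dtx3l (chr16:35926515-35939027) and Parp9 (chr16:35938470-35972621) are neighbours, with no other gene of the table in the 55132 bases between Parp14 and Dtx3l. Dtx3l and Parp9 start next to each other on opposite strands, and their spans overlap by 558 bases. RefSeq promoter windows on GRCm38.p6, from 250 bases before to 50 after a start, were matched by symbol for 6 members: Uba7, Ube2l6, Herc6, Dtx3l, Parp11 and Parp12. Each window was searched on both strands for the core of the response element, which is GAAA, any 2 bases and GAAA again, and for the gamma-activated site, TTCNNNGAA, where N is any base. The first was in 3.44% and the second in 8.3% of all 32851 windows of that length. Of the 6 members only Parp11 held either, at 1 of its 2 starts. There TTTCGATTTC, the first motif read on the other strand, lay 44 to 35 bases before the start, and TTCTTGGAA lay 37 to 29 bases before it, so the matches share bases. The window of Isg15, the gene of the modifier, held 3 overlapping copies of the first motif, 78 to 57 bases before the start. The 150 bases before the start are printed 5′ to 3′ on the strand of each gene, with motif matches in capitals, for Isg15 and Parp11, which hold matches, for Uba7, which rose most among the members with a window, and for Dtx3l, which faces Parp9.
Isg15 (chr4:156200819-156200968, minus strand): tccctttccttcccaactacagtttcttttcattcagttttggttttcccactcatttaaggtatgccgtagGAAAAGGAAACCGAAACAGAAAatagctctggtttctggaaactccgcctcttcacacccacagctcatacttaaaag
Parp11 upstream start (chr6:127446690-127446839, plus strand): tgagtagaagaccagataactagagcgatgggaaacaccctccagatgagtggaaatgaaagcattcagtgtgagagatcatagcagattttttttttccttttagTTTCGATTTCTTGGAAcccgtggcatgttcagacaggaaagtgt
Uba7 (chr9:107975417-107975566, plus strand): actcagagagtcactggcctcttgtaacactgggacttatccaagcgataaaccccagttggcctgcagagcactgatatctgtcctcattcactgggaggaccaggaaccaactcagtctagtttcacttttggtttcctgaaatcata
Dtx3l (chr16:35939028-35939177, minus strand): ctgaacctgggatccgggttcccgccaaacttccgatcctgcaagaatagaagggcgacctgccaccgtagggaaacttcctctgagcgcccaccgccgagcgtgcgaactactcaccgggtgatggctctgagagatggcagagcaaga
These matches describe letters in a fixed window and no measured binding.

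Libraries held 17381307 to 20287481 counts over genes. Levels are given as CPM, counts put on a common library total after trimmed mean of M-values (TMM) scaling. Young mice 1184, 1186 and 1188, all of the first cull day, stood apart from the other young mice: albumin took 5.82% to 6.29% of their counts against 10.15% to 11.09% in the other 7. Old mouse 1187 stood apart through markers of other liver cells, with 3390 CPM summed over 14 macrophage markers against at most 831 in the other old mice. Age calls of the members that turned on these libraries are given with and without them. Correlations and the spread among mice are given in part without old mouse 1187. Over both ages and cull days, neither is given with young mice 1184, 1186 and 1188 left out together. The full set of member pairs is given over all libraries only, so how far it rests on these mice is not shown.

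With cull day as a covariate, 3 of the 10 members rose with age and none fell: Usp18, Uba7 and Parp10. Over all 12269 genes tested 30.9% passed the same threshold, an edgeR adjusted p under 0.05, in either direction, and 16.3% passed as higher in old mice. The members' 3 of 10, all higher, lay near the first share and above the second, and this difference was not tested. Markers of macrophages, endothelial and stellate cells were also higher in the old libraries. Of 14 macrophage markers 13 passed as higher over all mice and 2 without old mouse 1187. None of the 10 members passed in edgeR once a score of these other-cell markers, or of macrophage markers alone, was in the fit, nor on the first of the 2 cull days alone. The median log2 fold change over the members was 0.32, beside -0.003 over all genes. The members at both ends of the conjugation cycle, the activating enzyme and the enzyme that removes the modifier, had the largest age differences, and Parp9, Dtx3l and Parp12 had the smallest. No member had all old mice above all young mice, which 0.994% of all genes did. The replicates are separate mice per the labels, so the p-values measure the spread between mice.

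**Figure D1:**
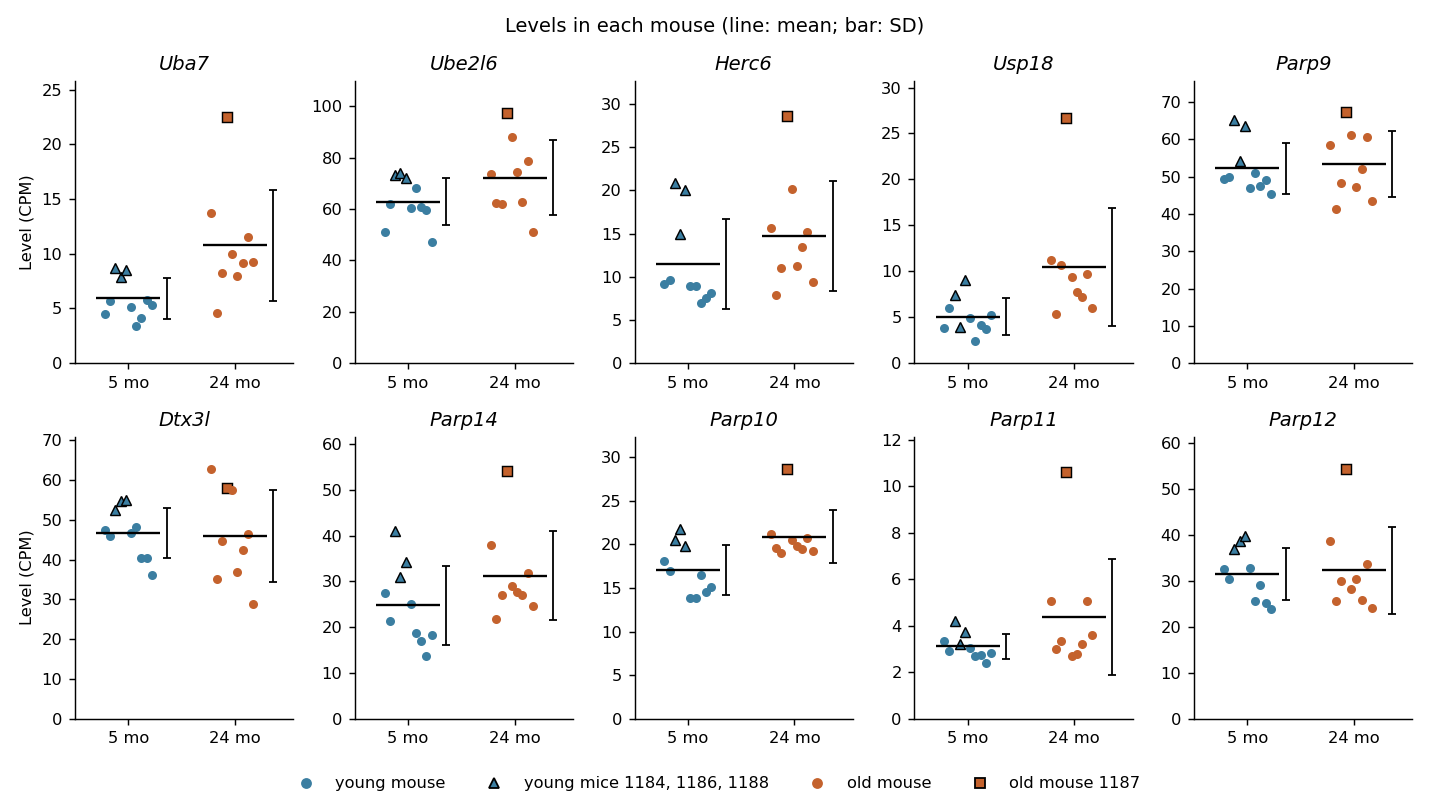
Level of each of the 10 members in every mouse, in CPM, by age, with a line at the group mean and a bar of 1 SD beside it (10 young mice, 9 old mice). Young mice 1184, 1186 and 1188 are triangles and old mouse 1187 is a square, which is the highest old value in 9 of the 10 panels. Usp18 and Uba7 are shifted upward in old mice, while Parp9, Parp12 and Dtx3l occupy about the same range at both ages.

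Uba7 (chr9:107975567-107984056) had 3.35 to 8.74 CPM in young mice, with a median of 5.53, and 4.57 to 22.5 CPM in old mice, with a median of 9.28. Most old mice were higher than every young mouse, but the groups overlapped: 6 of 9 old mice lay above the highest young mouse, and old mouse 1183, at 4.57 CPM, lay among the low young mice. The mean was 5.91 ± 1.87 CPM (SD, n = 10) in young mice and rose to 10.8 ± 5.05 CPM (SD, n = 9) in old mice, which is 0.86 on the log2 scale (SE 0.217, edgeR adjusted p = 0.00727). Young mice 1184, 1186 and 1188 held the highest young values, 7.91 to 8.74 CPM against 3.35 to 5.73 in the other 7. Without those 3 mice the log2 fold change was 1.08 (edgeR adjusted p = 0.00773), and without old mouse 1187 it was 0.68 (edgeR adjusted p = 0.0149). Of the 3195 exon bases of Uba7 in the GENCODE annotation, 194 also lie in exons of Gm20661 on the same strand, and reads there cannot be told apart.

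Ube2l6 (chr2:84798828-84810003), the E2 to which Uba7 passes ISG15, had 47.1 to 73.9 CPM in young mice, with a median of 61.3. In old mice it had 51.0 to 97.3 CPM, with a median of 73.5. The groups overlapped over most of their range, with 4 of 9 old mice above the highest young mouse and old mouse 1242, at 51.0 CPM, among the lowest young mice. The means were 62.8 ± 9.12 CPM (SD, n = 10) and 72.2 ± 14.5 CPM (SD, n = 9), and the log2 fold change of 0.19 did not pass the test (SE 0.106, edgeR adjusted p = 0.176).

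Herc6 (chr6:57580992-57665136), the ligase, had 6.93 to 20.9 CPM in young mice, with a median of 9.07, and 7.84 to 28.6 CPM in old mice, with a median of 13.5. The young values fell into separate ranges, 14.9 to 20.9 CPM in mice 1184, 1186 and 1188 and 6.93 to 9.64 CPM in the other 7. Of the 9 old mice 7 lay above that lower range, and 1 lay above the highest young mouse. Over all mice the log2 fold change was 0.37 (SE 0.211, edgeR adjusted p = 0.192). Without the 3 young mice it was 0.69 and passed (edgeR adjusted p = 0.0286), so the call for Herc6 turned on those libraries. Without old mouse 1187 it was 0.23 (edgeR adjusted p = 0.415). Of the 4767 exon bases of its transcript, 1269 also lie in exons of Gm45193 on the same strand, so its counts are uncertain.

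Usp18 (chr6:121245906-121270917) had the largest age difference of the members. It had 2.4 to 9.04 CPM in young mice, with a median of 4.57, and 5.3 to 26.7 CPM in old mice, with a median of 9.33. The lowest old mouse was above the young median and no young mouse reached the old median, although the ranges overlapped: 5 of 9 old mice lay above the highest young mouse. Young mice averaged 5.06 ± 1.97 CPM (SD, n = 10) and old mice 10.4 ± 6.42 CPM (SD, n = 9), a fitted log2 fold change of 0.99, or 1.99-fold (SE 0.245, edgeR adjusted p = 0.00625). Old mouse 1187 alone reached 26.7 CPM, against at most 11.2 in the other old mice, and without it the log2 fold change was 0.74 (edgeR adjusted p = 0.00959). Without young mice 1184, 1186 and 1188 it was 1.08 (edgeR adjusted p = 0.0141). Of its 1771 exon bases, 124 lie opposite exons of Gm44148.

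Parp9 and Dtx3l, whose products form a complex of an ADP-ribosyltransferase family protein and a ubiquitin ligase, gave similar values at both ages. Parp9 had 45.5 to 65.2 CPM in young mice, with a median of 49.6, and 41.4 to 67.5 CPM in old mice, with a median of 52.1. Dtx3l had 36.2 to 55.0 CPM in young mice, with a median of 47.1, and 28.9 to 62.8 CPM in old mice, with a median of 44.8. For both genes the old mice extended above and below the young mice, and the groups overlapped throughout. The log2 fold change was 0.03 for Parp9 (SE 0.0881, edgeR adjusted p = 0.845), and its sign turned under several alternatives. For Dtx3l it was -0.05 (SE 0.105, edgeR adjusted p = 0.719), and 0.01 on the first cull day alone. Counts of the pair may not be fully separate. In the GENCODE annotation 367 of 3548 exon bases of Parp9 and 458 of 5309 of Dtx3l lie in exons of the other gene on the opposite strand, and the strand setting of the counting is not given in the sources used here.

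Across the 19 mice Dtx3l and Parp9 varied together. Pearson's r between their log2 CPM was 0.823 and Spearman's rho 0.851 (permutation p = 2e-05 and 3e-05, adjusted over 21 relations 0.00021 and 0.00063). Without mice 1184 and 1187, the farthest from the median, r was 0.819. It was 0.779 within young mice, 0.872 within old mice, 0.861 within the first cull day and 0.682 within the second. The log2 ratio of Dtx3l to Parp9 differed by -0.10 between ages (exact permutation p = 0.163, and 0.18 after adjustment over 11 ratios).

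Parp14 (chr16:35832878-35871382), a large mono-ADP-ribosyltransferase with ADP-ribose-binding macrodomains, had 13.6 to 41.0 CPM in young mice, with a median of 23.2. In old mice it had 21.8 to 54.0 CPM, with a median of 27.7. Of the 9 old mice 8 lay above the young median, but young mice 1184, 1186 and 1188, at 30.9 to 41.0 CPM, were as high as the upper old mice. The log2 fold change of 0.35 did not pass over all mice (SE 0.16, edgeR adjusted p = 0.105). Without those 3 young mice it was 0.54 and passed (edgeR adjusted p = 0.0281), and without old mouse 1183 it was 0.42 and passed (edgeR adjusted p = 0.0375). Without old mouse 1187 it was 0.24 (edgeR adjusted p = 0.245). Of its 7417 exon bases, 110 also lie in exons of Gm49730 on the same strand.

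Parp10 (chr15:76232995-76243440), another mono-ADP-ribosyltransferase, showed a small rise that most old mice shared. It had 13.8 to 21.8 CPM in young mice, with a median of 16.7, and 19 to 28.7 CPM in old mice, with a median of 19.8. The lowest old mouse was above the young median, and 8 of the 9 old mice fell between 19 and 21.2 CPM. The ranges overlapped because young mice 1184, 1186 and 1188 had 19.8 to 21.8 CPM, against 13.8 to 18.1 in the other 7, which all lay below every old mouse. The young mean was 17.1 ± 2.89 CPM (SD, n = 10) and the old mean 20.9 ± 3.01 CPM (SD, n = 9), which is 0.29 on the log2 scale (SE 0.0782, edgeR adjusted p = 0.0111). It was 0.23 without old mouse 1187 (edgeR adjusted p = 0.0228) and 0.38 without the 3 young mice (edgeR adjusted p = 0.00518).

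Parp11 and Parp12 did not pass the test. Parp11 (chr6:127453723-127494239) was the least counted member, with 44 to 244 counts per library, and had 2.4 to 4.21 CPM in young mice, with a median of 2.97. In old mice it had 2.71 to 10.6 CPM, with a median of 3.32, and the other 8 old mice did not exceed 5.07 CPM. Its log2 fold change was 0.47 (SE 0.212, edgeR adjusted p = 0.0986), and 0.21 without old mouse 1187 (edgeR adjusted p = 0.284). It passed without old mouse 1189, at 0.54 (edgeR adjusted p = 0.0484).

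Parp12 (chr6:39086412-39118349), which carries zinc fingers beside its catalytic domain, had 23.8 to 39.8 CPM in young mice, with a median of 31.5. In old mice it had 24.0 to 54.3 CPM, with a median of 30.0. The groups covered the same range apart from old mouse 1187, the only one above the highest young mouse. The log2 fold change was 0.02 (SE 0.12, edgeR adjusted p = 0.908) and -0.08 without that mouse (edgeR adjusted p = 0.552).

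Both cull days were examined alone. On the first day 0 of 10 members passed in edgeR, with 1 at an unadjusted p under 0.05, beside 1.88% of all genes called higher. On the second day 5 of 10 passed, all higher in old mice, beside 12.2% of all genes called higher. Those 5 were Usp18 (log2 fold change 0.91, edgeR adjusted p = 0.0101), Uba7 (1.0, edgeR adjusted p = 0.00182), Herc6 (0.61, edgeR adjusted p = 0.0133), Parp14 (0.59, edgeR adjusted p = 0.0179) and Parp10 (0.43, edgeR adjusted p = 0.00425). The first day held the 3 young libraries that stood apart and old mouse 1187, and on it Usp18 differed by 1.06 and Uba7 by 0.73 with larger standard errors, 0.401 and 0.364. The other 3 of those 5 had smaller differences on the first day, with Parp10 at 0.16 (edgeR adjusted p = 0.397), Herc6 at 0.16 (edgeR adjusted p = 0.803) and Parp14 at 0.13 (edgeR adjusted p = 0.758). Leaving out the 3 young libraries also gave 5 of 10 members higher, beside 14.6% of all genes, and leaving out old mouse 1187 as well gave 5 of 10, beside 15.7%. Without mouse 1187 alone the 3 members still passed, beside 12.4%. The difference between days itself did not pass for any gene: 0 of 12269 in edgeR's interaction test, with 799 genes (6.51%) at an unadjusted p under 0.05, none of them a member. The smallest unadjusted interaction p of a member was 0.101, for Parp10.

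**Figure D2:**
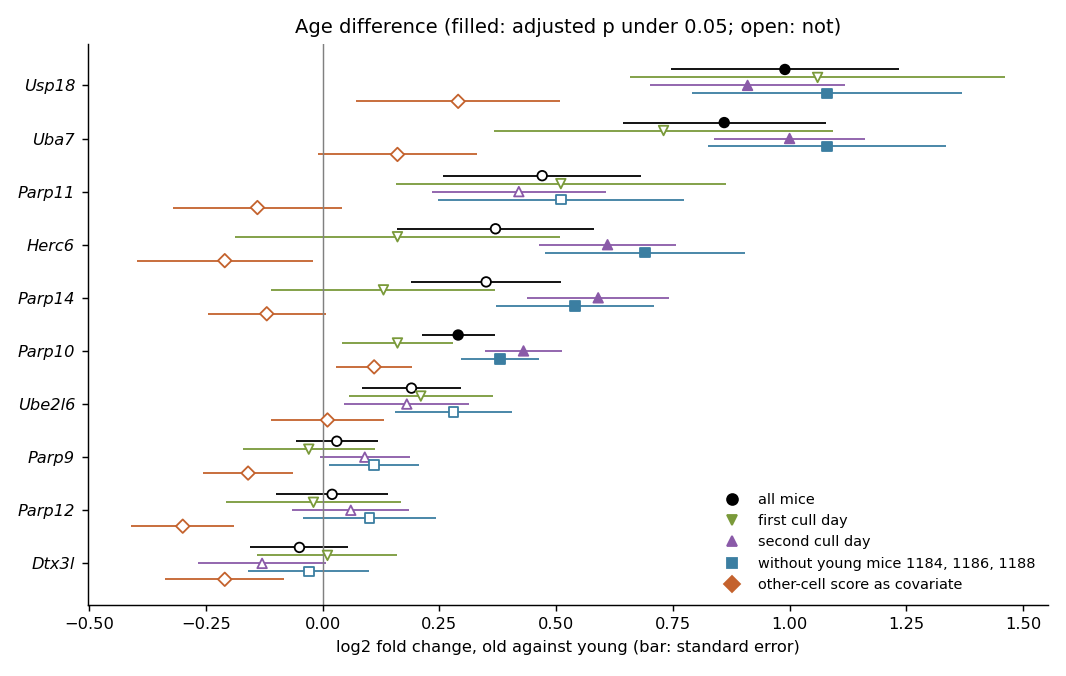
Log2 fold change of each member, old against young, with its standard error as a bar, from 5 fits in edgeR: all mice, each cull day alone, all but young mice 1184, 1186 and 1188, and all mice with the other-cell score in the fit. Filled symbols have an adjusted p under 0.05. Usp18, Uba7 and Parp10 are filled over all mice, Herc6 and Parp14 only on the second day and without the 3 young mice, and none with the covariate.

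Markers of other liver cells were higher in the old libraries. Of the macrophage markers 13 of 14 rose, beside 16.3% of all genes, with a summed level of 107 to 532 CPM in young and 69.6 to 3390 CPM in old mice. Without old mouse 1187 2 of 14 rose, close to the 12.4% of all genes in that fit. The count was 12 without young mice 1184, 1186 and 1188, and 13 without all 4. The endothelial list had 10 of 14 higher (7 without old mouse 1187), at 197 to 361 and 207 to 660 CPM. The stellate list had 13 of 14 higher (10 without that mouse), at 53.7 to 142 and 148 to 528 CPM. On the first cull day alone 0 of 14 macrophage, 0 of 14 endothelial and 6 of 14 stellate markers passed as higher, beside 1.88% of all genes. On the second day they were 13, 7 and 12, beside 12.2%. Of markers of plasmacytoid dendritic cells, which make interferon, 2 of 6 could be tested and 1, Tcf4, rose, at summed levels of 8.34 to 18.8 and 13.1 to 47.0 CPM. Nearly all of this was Tcf4 (mean 8.35 and 11.9 CPM) and Irf8 (3.51 and 7.5 CPM). Siglech, Ccr9, Runx2 and Cox6a2 averaged at most 0.162 CPM at either age. The call for Tcf4 was lost on the first cull day alone (edgeR adjusted p = 0.178) and with the other-cell score, described below, in the fit (edgeR adjusted p = 0.142). Of T and NK cell, B cell, neutrophil and cholangiocyte markers at most 2 each could be tested, with Jchain and Csf3r higher. Their summed levels were 1.05 to 3.56 and 1.93 to 38.7 CPM for T and NK cells, 0.274 to 2.75 and 1.26 to 18.6 CPM for B cells, 0.11 to 5.24 and 0.935 to 15.3 CPM for neutrophils, and 5.5 to 170 and 7.96 to 63.5 CPM for cholangiocytes in young and old mice. Without old mouse 1187 the highest old values were 4.02 CPM for T and NK cells, 4.69 for B cells, 4.83 for neutrophils and 19 for plasmacytoid dendritic cells, and the call for Csf3r was lost (edgeR adjusted p = 0.0505). The call for Csf3r was also lost on the first cull day alone (edgeR adjusted p = 0.249), and that for Jchain on the second (edgeR adjusted p = 0.162). With the other-cell score (edgeR adjusted p = 0.952 and 0.19) or the macrophage score (edgeR adjusted p = 0.368 and 0.0611) neither Csf3r nor Jchain passed. No listed marker was at 0 in every library. The hepatocyte markers, 2 of 11 higher and 3 lower, summed to 123000 to 174000 CPM in young and 138000 to 223000 CPM in old mice. For bulk RNA such as this, more cells of a type and more RNA per cell cannot be told apart.

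An other-cell score, the mean log2 CPM of the 44 markers that could be tested for macrophages, endothelium, stellate cells and lymphocytes, averaged 2.89 ± 0.49 (SD, n = 10) in young and 3.89 ± 0.81 (SD, n = 9) in old mice. It was 1.01 higher in old mice within cull days (exact permutation p = 0.00359). With this score as a covariate in edgeR 0 of 10 members passed, beside 6.4% of all genes called higher, with 1 member at an unadjusted p under 0.05. That member was Parp12, at -0.30 (edgeR adjusted p = 0.0778). The log2 fold change of Usp18 was then 0.29 (SE 0.218, edgeR adjusted p = 0.385), that of Uba7 0.16 (SE 0.17, edgeR adjusted p = 0.567) and that of Parp10 0.11 (SE 0.0815, edgeR adjusted p = 0.373). With a macrophage score alone as the covariate 0 of 10 also passed, beside 9.94% of all genes called higher, with 3 at an unadjusted p under 0.05, and Usp18 stood at 0.51 (edgeR adjusted p = 0.0691) and Uba7 at 0.35 (edgeR adjusted p = 0.0665). Which cells the transcripts came from was not tested.

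**Figure D3:**
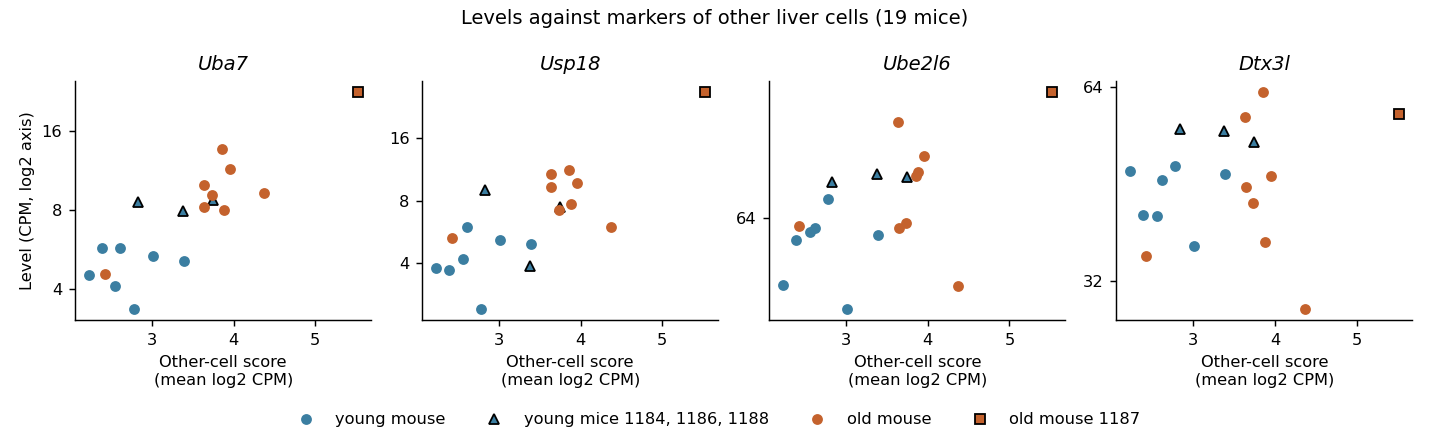
Level of Uba7, Usp18, Ube2l6 and Dtx3l (CPM, log2 axis) against the other-cell score (mean log2 CPM of 44 marker genes), 1 point per mouse. Uba7 follows the score most closely of the members (r = 0.863) and Dtx3l least (r = 0.193), and old mouse 1187 lies at the right of every panel with a score of 5.52.

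Over the 19 mice the correlation with this score ran from 0.193 for Dtx3l to 0.863 for Uba7 (permutation p = 0.429 and 2e-05, adjusted over 21 relations 0.429 and 0.00021). The permutations ignored age and cull day, and the score, Uba7 and Usp18 were all higher in old mice. Their p-values thus do not separate a relation among mice from a shared age difference, and no p was computed within an age. For Uba7 rho was 0.816 (permutation p = 8e-05, adjusted 0.00084), and r was 0.765 without mice 1180 and 1187, 0.545 within young, 0.896 within old, 0.947 within the first and 0.814 within the second cull day. For Usp18 r was 0.773 and rho 0.742 (permutation p = 0.00028 and 0.00048, adjusted 0.00118 and 0.00336), with r = 0.577 without the same 2 mice, 0.364 within young, 0.771 within old (0.374 without old mouse 1187), 0.853 within the first and 0.766 within the second cull day. For Ube2l6 r was 0.553 and rho 0.523 (permutation p = 0.0135 and 0.0226, adjusted 0.0185 and 0.0432), but r was 0.235 without those 2 mice and 0.155 within the second day, so it rested on them. For Dtx3l rho was 0.181 (permutation p = 0.459, adjusted 0.482), and r was 0.592 within the first and -0.388 within the second cull day. Of the 21 relations 19 passed, but 6 did without old mouse 1187. Those that still passed for the score were Uba7, Usp18 and Parp14.

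Isg15 (chr4:156199424-156200818), the modifier itself, had 4.21 to 9.47 CPM in young mice, with a median of 6.15, and 5.4 to 30.1 CPM in old mice, with a median of 9.04. Old mouse 1187 was far above the rest, and 3 of 9 old mice lay above the highest young mouse. It rose by 0.81 on the log2 scale (SE 0.269, edgeR adjusted p = 0.0291), but the value was 0.46 without that mouse (edgeR adjusted p = 0.0529) and the call was also lost without the 3 young mice (0.86, edgeR adjusted p = 0.0639), young mouse 1180 (0.75, edgeR adjusted p = 0.0528) or old mouse 1240 (0.76, edgeR adjusted p = 0.056). With those 3 young mice and mouse 1187 left out together it passed (0.61, edgeR adjusted p = 0.0132). On each cull day alone it did not pass (0.99 and 0.59, edgeR adjusted p = 0.18 and 0.0691). With the other-cell score in the fit its log2 fold change was 0.03 (edgeR adjusted p = 0.95), and with the macrophage score 0.27 (edgeR adjusted p = 0.401). Usp18 had the closest correlation with Isg15 (r = 0.848, rho = 0.707, permutation p = 3e-05 and 0.00102, adjusted 0.00021 and 0.00535), with r = 0.702 without mice 1180 and 1187. Within young mice it was 0.626, within old mice 0.873 (0.535 without old mouse 1187), and 0.954 and 0.872 within the cull days. Dtx3l had the weakest (r = 0.225, rho = 0.149, permutation p = 0.357 and 0.547, adjusted 0.374 and 0.547).

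The members were also set against Isg15 mouse by mouse, which asks whether each moved by as much as the modifier. The log2 fold changes of Parp12, Dtx3l and Parp9 themselves were 0.02, -0.05 and 0.03. Their ratios therefore largely restate the rise of Isg15, the shared denominator (0.81), whose call was lost in several alternatives. Relative to Isg15, Parp12 was lower in old mice, with a difference in log2 ratio of -0.68 within cull days (exact permutation p = 0.000378, adjusted p = 0.00416 over 11 ratios). Dtx3l differed by -0.75 and Parp9 by -0.65 (exact permutation p = 0.00126 and 0.00104, both with an adjusted p of 0.00462), and Ube2l6 by -0.49 (exact permutation p = 0.0165, adjusted p = 0.0453). The call for Ube2l6, the only enzyme of ISG15 conjugation among these, was lost without most single mice. All 9 old mice lay below the young median for Parp9 and Parp12, 8 for Dtx3l and 7 for Ube2l6. The ratios of Uba7 and Usp18 to Isg15 had differences of 0.12 (exact permutation p = 0.538, adjusted p = 0.538) and 0.25 (exact permutation p = 0.0404, adjusted p = 0.089). Neither passed, which does not show that these genes moved alike with Isg15. Without young mice 1184, 1186 and 1188 the sizes were similar, -0.73 for Parp12, -0.83 for Dtx3l and -0.71 for Parp9, but 0 of 11 passed after adjustment, with 3 at an unadjusted exact permutation p under 0.05, and the smallest p after adjustment was 0.0748.

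**Figure D4:**
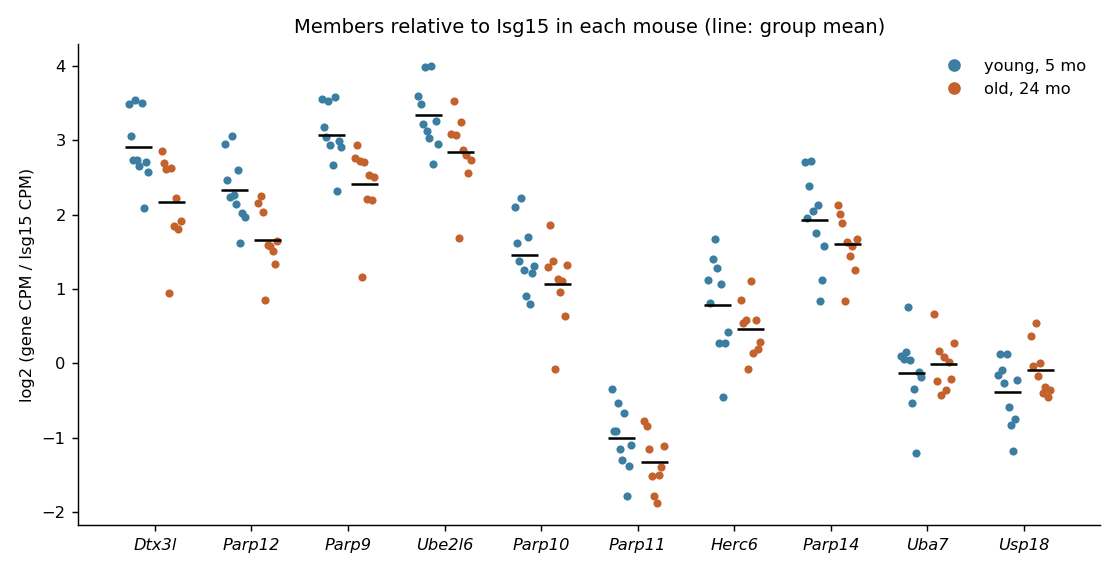
Log2 ratio of each member's CPM to that of Isg15 in every mouse, by age, with a line at the group mean and no prior count. Old mice sit lower for Dtx3l, Parp12, Parp9 and Ube2l6, while for Uba7 and Usp18 the groups overlap around a ratio near 0.

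Levels were compared between members per kilobase of exon length. In young mice Ube2l6 was the highest at 45.5 ± 6.61 CPM per kilobase (SD, n = 10), and its range overlapped with no other member. Parp9 followed at 14.7 ± 1.92, then Parp12 at 9.81 ± 1.78 and Dtx3l at 9.04 ± 1.22, of which the last 2 overlapped. Parp10 came next at 5.06 ± 0.855, then Parp14 at 3.42 ± 1.2, Usp18 at 2.88 ± 1.12, Herc6 at 2.19 ± 0.988, Uba7 at 1.89 ± 0.598 and Parp11 at 0.838 ± 0.144 CPM per kilobase, and from Parp10 down each range overlapped with the next. In old mice Usp18, at 5.93 ± 3.65 CPM per kilobase (SD, n = 9), stood above Parp14 at 4.32 ± 1.34, and Uba7 at 3.43 ± 1.61 above Herc6 at 2.8 ± 1.22, with overlapping ranges. Transcripts of the E2 thus stood 24.1-fold above those of the E1 in young mice and 15.2-fold in old mice per kilobase, as a ratio of group means.

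**Figure D5:**
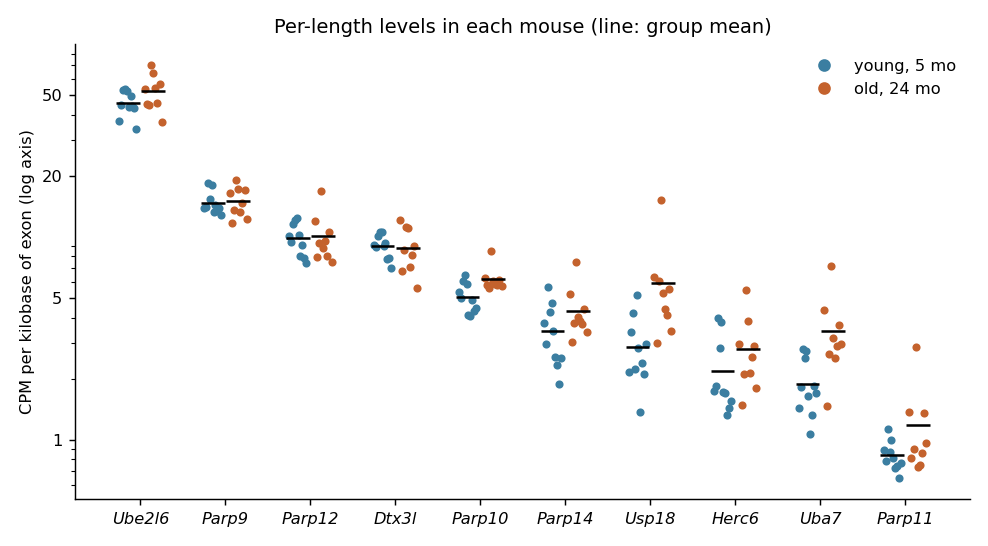
Level per kilobase of exon of each member in every mouse (CPM per kilobase, log axis), by age, with a line at the group mean. Ube2l6 stands above all other members at both ages, and the means run down to Parp11, at 0.838 in young and 1.18 in old mice.

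The old mice differed more from each other than the young mice in these genes. Each gene's SD in old mice was divided by its SD in young mice, after removing age by cull day means. The median log2 value of this quotient was 0.68 over the members, beside 0.07 over all genes, and all 10 members lay above the latter. Without old mouse 1187 the medians were 0.36 and -0.09. Parp11 had the widest contrast (1.98, and 1.19 without that mouse) and Dtx3l one that did not shrink (1.14 and 1.2), while for Parp10, Parp14 and Usp18 it turned negative without mouse 1187 (-1.11, -0.37 and -0.30).

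Members varied together across mice. Over their 45 pairs Pearson's r ran from 0.372 (Dtx3l with Usp18) to 0.912 (Parp9 with Herc6), with a median of 0.742, as a description over 19 libraries that share mouse 1187 and the 3 young mice. On the mean of their standardised levels old mouse 1187 ranked first at 2.28, followed by old mouse 1181 at 0.99 and young mice 1184 and 1188 at 0.80 and 0.75, and young mouse 1244 was lowest at -1.02. Outside the members the genes most like this mean were Ifih1, which encodes the RNA sensor MDA5 (r = 0.949), the helicase gene Ddx60 (0.945), Olfr56 (0.925), the large GTPase gene Gvin1 (0.922) and Esyt1 (0.911). The span of Olfr56 covers all 9971 bases of Ifi47 on the same strand, so its counts are uncertain. Of these 5 Gvin1 rose with age (log2 fold change 1.29, SE 0.429, edgeR adjusted p = 0.0293), but its span shares 58849 bases with that of Gm4070 on the same strand, so its counts are uncertain too. That call was lost without old mouse 1187 (0.95, edgeR adjusted p = 0.108), young mouse 1239 (edgeR adjusted p = 0.0502), young mouse 1243 (edgeR adjusted p = 0.0505) or old mouse 1240 (edgeR adjusted p = 0.0552). It was also lost with the other-cell score in the fit (-0.02, edgeR adjusted p = 0.972), with the macrophage score (0.35, edgeR adjusted p = 0.409), without the cull day term (1.07, edgeR adjusted p = 0.148) and on the first cull day alone (0.71, edgeR adjusted p = 0.525). Without young mice 1184, 1186 and 1188 Gvin1 differed by 2.04 (edgeR adjusted p = 0.00395), and Ddx60 and Olfr56 passed too (0.95 and 0.93, edgeR adjusted p = 0.0331 and 0.027).

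The other genes of these pathways are given by list, beside 16.3% of all genes tested that rose and 14.5% that fell. Among 12 genes of a list of Isg15 with ligases, conjugating enzymes and proteases, many of which serve ubiquitin, Isg15 rose and 5 fell. The list includes Herc family relatives of Herc6, and a role of its genes in ISG15 conjugation was not tested. The falls with the smallest p were those of the protease Usp14 (log2 fold change -0.34, edgeR adjusted p = 0.000278) and of the ligases Arih1 (-0.28, edgeR adjusted p = 0.00331) and Herc2 (-0.51, edgeR adjusted p = 0.00477). Neither ligase passed on either cull day alone, and Arih1 did not with the other-cell score in the fit (-0.20, edgeR adjusted p = 0.0884). The list's median was -0.15. The falls numbered 3 without young mice 1184, 1186 and 1188 (beside 1549 of 12354 genes), and 2 on the first cull day alone (beside 219 of 12260). They numbered 1 on the second day (beside 883 of 12362) and 2 with the other-cell score in the fit (beside 732 of 12269). Of 15 relatives of the E1 and E2 enzymes none rose and 4 fell, with a median of -0.14: Atg7 (-0.35, edgeR adjusted p = 0.000427), Uba3 (-0.22, edgeR adjusted p = 0.00603), Ube2d3 (-0.18, edgeR adjusted p = 0.0258) and Ube2l3 (-0.17, edgeR adjusted p = 0.046). Uba1, the main E1 of ubiquitin, had a log2 fold change of -0.18 (edgeR adjusted p = 0.0512). It passed as lower in some alternatives, among them DESeq2 (adjusted p = 0.0154), limma-voom (adjusted p = 0.0254) and the fit with the macrophage score (edgeR adjusted p = 0.0397). Of the fits without a single mouse it passed only without old mouse 1189 (edgeR adjusted p = 0.0108). Of the 15, 2 fell with library totals alone as the scaling (beside 1172 of 12269 genes), 0 on the first cull day alone and 1 on the second. With the other-cell score in the fit 2 fell, and 1 without the 3 young mice and old mouse 1187 (beside 1545 of 12273). With the other-cell score the calls for Uba3 (edgeR adjusted p = 0.0672), Ube2d3 (edgeR adjusted p = 0.233) and Ube2l3 (edgeR adjusted p = 0.0805) were lost, and that for Ube2d3 also with the macrophage score (edgeR adjusted p = 0.101). Atg7 did not pass on the first day alone (-0.32, edgeR adjusted p = 0.0809), and the call for Ube2l3 was lost without most single mice.

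Of 10 other PARP genes tested 2 rose and 1 fell, with a median of 0.0. Parp2 and Parp3, which act at DNA breaks, rose by 0.50 and 0.43 (edgeR adjusted p = 0.00369 and 0.00238), and Parp1, the most abundant nuclear PARP in most cells, fell by 0.20 on the log2 scale (edgeR adjusted p = 0.0215; 0.0671 with library totals alone as the scaling and 0.0664 without the 3 young mice). With the other-cell score in the fit all 3 calls were lost (Parp2 0.37, Parp3 0.30 and Parp1 -0.20, edgeR adjusted p = 0.0754, 0.0713 and 0.109), as they were on the first cull day alone (0.45, 0.27 and -0.24, edgeR adjusted p = 0.15, 0.234 and 0.157). The call for Parp1 was also lost on the second day alone (edgeR adjusted p = 0.259), with the macrophage score (edgeR adjusted p = 0.0511) and without the 3 young mice and old mouse 1187 (edgeR adjusted p = 0.0784). Zc3hav1, an antiviral RNA-binding member, had 0.03 (edgeR adjusted p = 0.85). Tiparp, which the aryl hydrocarbon receptor induces, had -0.63 (edgeR adjusted p = 0.183; 0.02 without the 3 young mice), with 40.0 CPM in young mouse 1186 and at most 9.32 CPM in any other mouse. Of 6 tested enzymes that remove ADP-ribose, 1 fell, Parg (-0.32, edgeR adjusted p = 0.000563; -0.24 and 0.0985 on the second cull day alone). Of 3 tested Deltex relatives of Dtx3l, 1 rose, the weakly expressed Dtx3, with 0.547 ± 0.274 CPM (SD, n = 10) in young and 1.67 ± 0.751 CPM in old mice (SD, n = 9; log2 fold change 1.61, edgeR adjusted p = 0.00108; 1.43 and 0.113 on the first cull day alone).

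Of 6 genes that relay the type 1 interferon signal, 3 rose and 3 did not pass. Irf9 rose by 0.34 (SE 0.0906, edgeR adjusted p = 0.00997) and the receptor chain Ifnar1 by 0.18 (edgeR adjusted p = 0.0251). Every old mouse had more Irf9 than the median young mouse. With the other-cell score in the fit both calls were lost (Irf9 0.12, edgeR adjusted p = 0.392, and Ifnar1 0.17, edgeR adjusted p = 0.158), as they were with the macrophage score (edgeR adjusted p = 0.0877 and 0.0747) and on the first cull day alone (edgeR adjusted p = 0.246 and 0.168). The call for Ifnar1 was also lost on the second day alone (edgeR adjusted p = 0.263) and without the filter on low counts (edgeR adjusted p = 0.0744), and without the 3 young mice and old mouse 1187 (edgeR adjusted p = 0.0582). Stat2 passed narrowly at 0.29 (SE 0.109, edgeR adjusted p = 0.0499) and did not pass under other scalings, without the filter on low counts (edgeR adjusted p = 0.0797), in limma-voom (adjusted p = 0.144) or without most single mice, old mouse 1187 among them (0.25, edgeR adjusted p = 0.10). Without young mice 1184, 1186 and 1188 it was 0.44 and passed (edgeR adjusted p = 0.0132), as it did with mouse 1187 left out too (0.40, edgeR adjusted p = 0.011). It did not pass with the other-cell score (0.18, edgeR adjusted p = 0.363) or the macrophage score (0.23, edgeR adjusted p = 0.167), nor on either cull day alone (0.31 and 0.27, edgeR adjusted p = 0.282 and 0.121).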

How the data were processed

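Poly(A) RNA of hepatocytes isolated by perfusion was extracted with Trizol and chloroform and sequenced as a stranded paired-end library, per the labels' protocols. STAR and HOMER are named in the submitters' processing notes, with no version. The authors deposited 1 table of estimated counts per gene, which HOMER's analyzeRepeats.pl wrote for mm10 from exons of RefSeq transcripts, condensed to genes and left raw, per the file headers. The strand setting and the handling of reads with several matches are not given in the sources used here. Every deposited value was a multiple of 0.5, and the 29.2% that were not whole numbers were rounded before testing.

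Age was tested on all 19 libraries with edgeR 4.0.16 (R 4.3.3): trimmed mean of M-values scaling, filterByExpr by age group with a minimum count of 10, and the quasi-likelihood test with a term for cull day. Benjamini-Hochberg adjustment covered 12269 genes, with a threshold of 0.05. Standard errors were derived from the F statistic. Log2 CPM used a prior count of 2. Ratios were compared by a two-sided exact permutation test over all 31752 relabellings within cull days. Correlations had two-sided p from 100000 permutations over all 19 libraries, without regard to age or cull day. Values of 2e-05 and 3e-05 are near the smallest these can give. Alternatives used DESeq2 1.42.0, limma 3.58.1 (voom with sample weights), other scalings and filters, single cull days, covariates and left-out mice. The alternatives without the 3 young mice for correlations, ratios and spread, and without those and mouse 1187 together, were chosen after seeing the data. For correlations and spread, values without the 3 young mice are not reported here. Scripts for the tests were checked on simulated data (Python 3.11.15, numpy 2.4.6, pandas 2.3.3).

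The members and gene lists were chosen with earlier results of these data known. Genes named beside the members were Isg15, Stat2, Irf9, Uba1, Ube2l3, Tiparp and Zc3hav1, up to 3 genes of smallest p among those past the threshold in each pathway list, and the 5 genes with the highest correlation with the members' mean. Albumin, Jchain, Csf3r, the named markers of plasmacytoid dendritic cells and the overlapping genes Ifi47, Gm4070, Gm45193, Gm20661, Gm49730 and Gm44148 are outside this rule. They were named after their values or position were seen. Other marker genes are given by list. A further gene of the naming rule is not reported here. Coordinates are those of the deposited table unless RefSeq or GENCODE M21 is named, counted from 1.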

Additional observations from a re-analysis of the deposited data

Results flagged for a closer look

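In 36 groups of values checked, 1 for each of 18 genes in each age, 7 held a mouse whose gap to its nearest neighbour was a large part of the group's range. The rule flags about 1 in 20 groups by chance when values are independent and normally distributed. These genes were correlated and measured in the same mice, so the flags are not separate and that rate need not hold. Old mouse 1187 was the far sample in 6 of them, all in old mice. It had 28.7 CPM of Parp10, 10.6 CPM of Parp11, 54.3 CPM of Parp12, 54.0 CPM of Parp14, 26.7 CPM of Usp18 and 30.1 CPM of Isg15. The other 8 old mice had at most 21.2 CPM of Parp10, 5.07 of Parp11, 38.6 of Parp12, 37.9 of Parp14, 11.2 of Usp18 and 13.3 of Isg15. The same mouse had the highest other-cell score, 5.52 against at most 4.37 in the other old mice, and the part of that difference in these values was not tested. In young mice Tiparp had 40.0 CPM in mouse 1186 and at most 9.32 CPM in the other 9.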

How the results depend on the processing

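The count of 3785 genes and of 3 members higher in old mice moved to 450 and 0 on the first cull day alone, to 2388 and 5 on the second, to 1517 and 0 when the fit included the other-cell score, and to 2388 and 0 when it included the macrophage score. The members were 5 without young mice 1184, 1186 and 1188, and 5 without those and old mouse 1187. Leaving out each mouse in turn gave 3014 to 3949 genes and 3 to 4 members, and 0 to 1 gene in the interaction test, which was 1 without young mouse 1180 and 1 without young mouse 1182 and was never a member. Other scalings, filters and tools left Usp18, Uba7 and Parp10 past the threshold. Library totals alone as the scaling moved the share of called genes that were higher from 53.0% to 64.2% and the median of all genes from -0.003 to 0.041. The sign turned for log2 fold changes close to 0 or with a covariate, and the cause was not tested. In the fit with the other-cell score it was -0.156 for Parp9, -0.143 for Parp11, -0.299 for Parp12, -0.116 for Parp14 and -0.214 for Herc6, and with the macrophage score -0.102 for Parp9, -0.194 for Parp12 and -0.038 for Herc6. On the first day it was -0.027 for Parp9, -0.016 for Parp12 and 0.015 for Dtx3l, without a filter -0.007 for Parp9 and -0.013 for Parp12, and with limma-voom -0.021 for Parp12. Leaving out single mice gave -0.02 to 0.072 for Parp9, -0.084 to 0.071 for Parp12 and -0.1 to 0.0 for Dtx3l. Of 11 ratios 4 passed, 3 to 6 when each mouse was left out and 0 without the 3 young mice, and the call for Ube2l6 was lost without most single mice (adjusted p up to 0.128). Of 21 correlations 19 passed, 6 without old mouse 1187. No paired analysis was possible because mouse numbers are not shared between ages. Depth limits Usp18 and Parp11 most, with 43 and 44 counts in their lowest libraries.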
